A study of Mus musculus and Rattus norvegicus with 30 samples.

Results

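Cholesterol synthesis and handling was followed here through 28 genes in dorsal root ganglia (DRG), where the cell bodies of sensory neurons lie, after nerve injury. The genes were taken by symbol from a list of sterol pathway genes, and all 28 were found among the 54315 features counted in mouse. In rat 16 of the 28 had counts among 39281 features. The other 12 (Mvk, Mvd, Idi1, Fdft1, Lss, Msmo1, Hsd17b7, Srebf1, Insig2, Stard4, Soat1 and Npc1) were listed at 0 in all 8 rat libraries. Of all rat features 43.4% were listed so, and among them were genes that DRG are known to use strongly, such as Nefh and Tubb3, so no level is given for these 12 members in rat.

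The libraries came from adult mice of the strains BALB/c and B10.D2 and from male Wistar rats. For spared nerve injury (SNI) the mouse sciatic nerve lost its common peroneal and sural branches by section but kept the tibial branch, while sham mice only had the nerve exposed. Their L3 and L4 DRG were taken at 28 days. There were 6 BALB/c sham (3 male, 3 female), 4 BALB/c SNI (2 male, 2 female), 5 B10.D2 sham (3 male, 2 female) and 5 B10.D2 SNI (2 male, 3 female) libraries, each of ribosome-depleted RNA from a single animal. Rats had transection of the L5 spinal nerve (SNT) or sham surgery, and each of the 4 sham and 4 SNT libraries held poly-A RNA of L5 DRG pooled from 3 animals after 21 days. The ganglia hold injured and intact neurons together with glia and immune cells.

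Cells make cholesterol from acetyl-CoA through mevalonate, the isoprenoids, squalene and lanosterol, and the same route supplies farnesyl groups for protein modification. When membrane sterol is low, Scap carries the transcription factors Srebf1 and Srebf2 out of the endoplasmic reticulum and the synthesis genes are switched on, and when sterol is high the Insig proteins hold them back. Surplus cholesterol is esterified by Soat1 or exported by Abca1 to lipoproteins, and the glia of peripheral nerve are known for a large demand for cholesterol, since myelin is rich in it.

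The mouse libraries held 29989963 to 41881331 counts and the rat libraries 11954612 to 17887909. Levels are given as CPM, the count per 1000000 counts of the TMM-scaled library size. A feature is called where the adjusted p of the edgeR quasi-likelihood test, taken over all features, is under 0.05. A marker list of injured neurons checked the surgery labels: the summed CPM of its 6 genes was 141.5 to 193.0 in BALB/c sham against 521.5 to 671.7 in BALB/c SNI, and 158.4 to 192.5 in B10.D2 sham against 242.5 to 436.2 in B10.D2 SNI. In rat, with Atf3 and Gap43 listed at 0, the sum was 96.0, 110.1 and 101.4 in sham 1 to 3 but 342.7 in sham 4, against 469.8 to 732.4 in SNT. On the first principal component of the rat libraries (72.5% of the variance), sham 4 (-6.32) and SNT 1 (0.824) lay between sham 1 to 3 (-35.0 to -48.1) and SNT 2 to 4 (30 to 49.3). Rat results are therefore given with and without these libraries.

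Promoter stretches of genes called after injury and of Hmgcs1, the only member with an exact match to the sterol element searched, are shown. Sterol-responsive elements of this pathway are known to lie in such regions. They were read from RefSeq (GRCm38.p6), which held a promoter (250 bases before to 50 after a transcription start) for 23 of the 28 genes, all but Fdps, Fdft1, Sqle, Stard4 and Npc1. The sterol regulatory element was searched as TCACNCCAC, the element of liver X receptors as AGGTCA repeated after any 4 bases and the CCAAT box as CCAAT, each on both strands. Only Hmgcs1, the cytosolic HMG-CoA synthase, held the first (1 of 23 genes, 4.35%, against 1.44% of 27025 genes), none of the 23 held the second (0.0148% of all genes did), and 19 of 23 (82.6%) held CCAAT against 41.1% of all genes. Counted by promoter and not by gene, CCAAT was held by 64.5% of 31 member promoters against 37.4% of all 32851. In Hmgcs1 the sterol element did not overlap a CCAAT match. The capitals mark the sterol element in Hmgcs1 (chr13:119690184-119690252, plus strand, 137 bases before the start) and the CCAAT box, or its reverse complement, nearest to the start in the 4 genes that were called after injury in at least 1 mouse strain and had a match. Hmgcs1 was called in neither strain alone.
Hmgcs1: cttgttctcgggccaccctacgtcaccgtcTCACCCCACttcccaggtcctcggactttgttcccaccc
Cyp51: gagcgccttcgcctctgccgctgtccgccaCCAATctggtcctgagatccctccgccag
Msmo1: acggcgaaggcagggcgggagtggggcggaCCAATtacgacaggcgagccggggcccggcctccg
Soat1: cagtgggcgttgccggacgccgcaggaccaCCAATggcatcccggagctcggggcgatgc
Hsd17b7: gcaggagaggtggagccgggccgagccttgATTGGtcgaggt

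These 4 stretches lie on the minus strand at chr5:4104698-4104756 (Cyp51), chr8:64733599-64733663 (Msmo1), chr1:156474329-156474388 (Soat1) and chr1:169969206-169969247 (Hsd17b7). Abca1, the gene with the largest change, held none of the 3 motifs in this window. A match is a description of the letters and no test of binding was made. Elements that differ from these letters or lie outside the window were not searched, so a gene without a match may still have one.

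Among the 28 genes Hmgcs1 had the highest level per exon length in the sham ganglia of BALB/c, and Dhcr7, the reductase of the last step, the lowest. Hmgcs1 stood at 180 ± 10.4 RPKM (CPM per kilobase of exon, SD, n = 6), Fdft1 (squalene synthase) at 55.3 ± 2.80 RPKM and Dhcr7 at 5.67 ± 0.640 RPKM. Most of the synthesis enzymes lay between these: Pmvk, Acat2, Sqle, Msmo1, Cyp51 and Sc5d were all at 32.5 to 41.99 RPKM. Of the handling genes Abca1 was at 26.7 ± 2.47 RPKM, while Npc1 (6.71 ± 0.383 RPKM), which moves cholesterol out of lysosomes, and Soat1 (6.42 ± 0.391 RPKM) were near the bottom. The order is coarse, since 23 of the 27 neighbouring pairs had overlapping ranges over the 6 libraries. The length used was that of all annotated exons of a gene together, which can be longer than its main transcript and then lowers its RPKM.

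**Figure D1:**
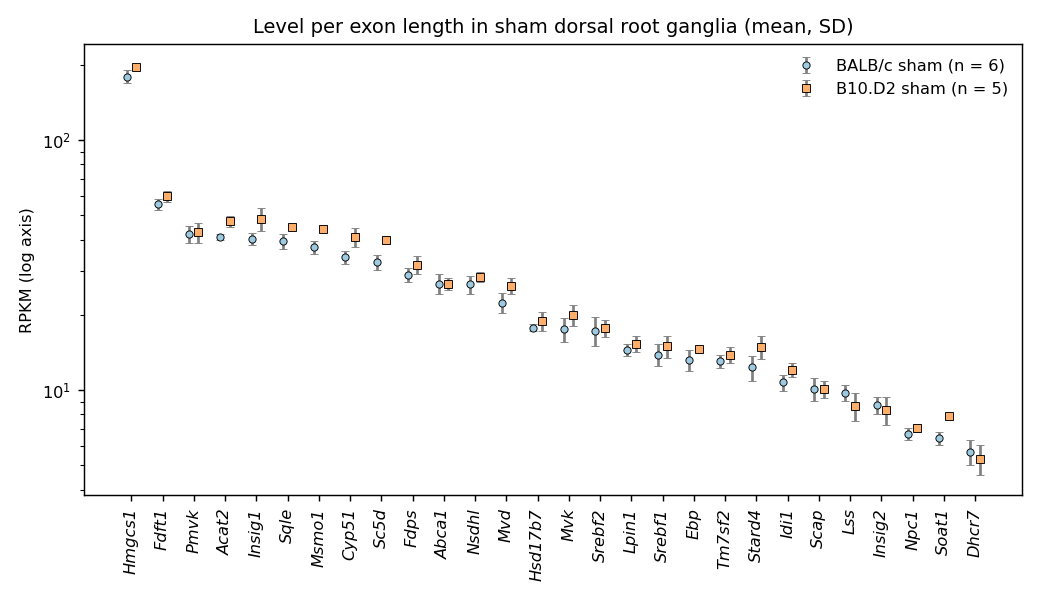
Level of each of the 28 genes in sham mouse DRG, in RPKM on a log axis, with circles for the mean of 6 BALB/c and squares for the mean of 5 B10.D2 libraries and bars for the SD, ordered by the BALB/c mean. Hmgcs1 stands alone at the top and Dhcr7 is the lowest in BALB/c.

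The first question was what SNI did to these genes in BALB/c. Abca1, the exporter that loads cholesterol onto apolipoprotein A-I, rose 1.67-fold. Soat1, which esterifies cholesterol for storage, and Hsd17b7, a ketoreductase of the sterol steps, rose by 17.0% and 16.3%. Cyp51, the lanosterol demethylase, fell by 12.6%. These 4 were the only members called of 28 (14.3%, against 9.69% of all 24685 features tested): 3 were higher (4.82% of features were) and 1 was lower (4.87% of features were).

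Abca1 (chr4:53030787-53159895, minus strand) had 243.9, 278.2 and 307.3 CPM as its lowest, median and highest in BALB/c sham, and 477.4, 504.4, 420.2 and 442.6 CPM in the 4 SNI libraries. Every SNI library lay well above every sham library, in males and females alike. The log2 fold change was 0.74 ± 0.08 (SE) with an edgeR adjusted p of 1.41e-06. Soat1 (chr1:156424525-156474331, minus strand) had 57.6, 63.1 and 67.8 CPM in sham and 72.8, 75.8, 73.0 and 72.9 CPM in SNI, groups that did not overlap although the step was small (log2 0.23 ± 0.05, edgeR adjusted p = 0.00355). Hsd17b7 (chr1:169949535-169969241, minus strand) had 87.4, 90.3 and 94.3 CPM in sham and 118.3, 107.6, 99.8 and 97.2 CPM in SNI. The SNI libraries were again all higher, though the lowest cleared the highest sham library only narrowly (log2 0.22 ± 0.06, edgeR adjusted p = 0.0197). Cyp51 (chr5:4081145-4104746, minus strand) had 138.4, 151.9 and 161.4 CPM in sham and 124.8, 129.7, 134.0 and 135.4 CPM in SNI, all below the sham libraries (log2 -0.19 ± 0.06, edgeR adjusted p = 0.0427). In these 4 genes alone the groups did not overlap (4 of 28, with 8.61% of all features not overlapping). The calls of Abca1 and Soat1 held with each library left out in turn, while that of Hsd17b7 was lost in 2 and that of Cyp51 in 7 of 10 such fits.

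**Figure D2:**
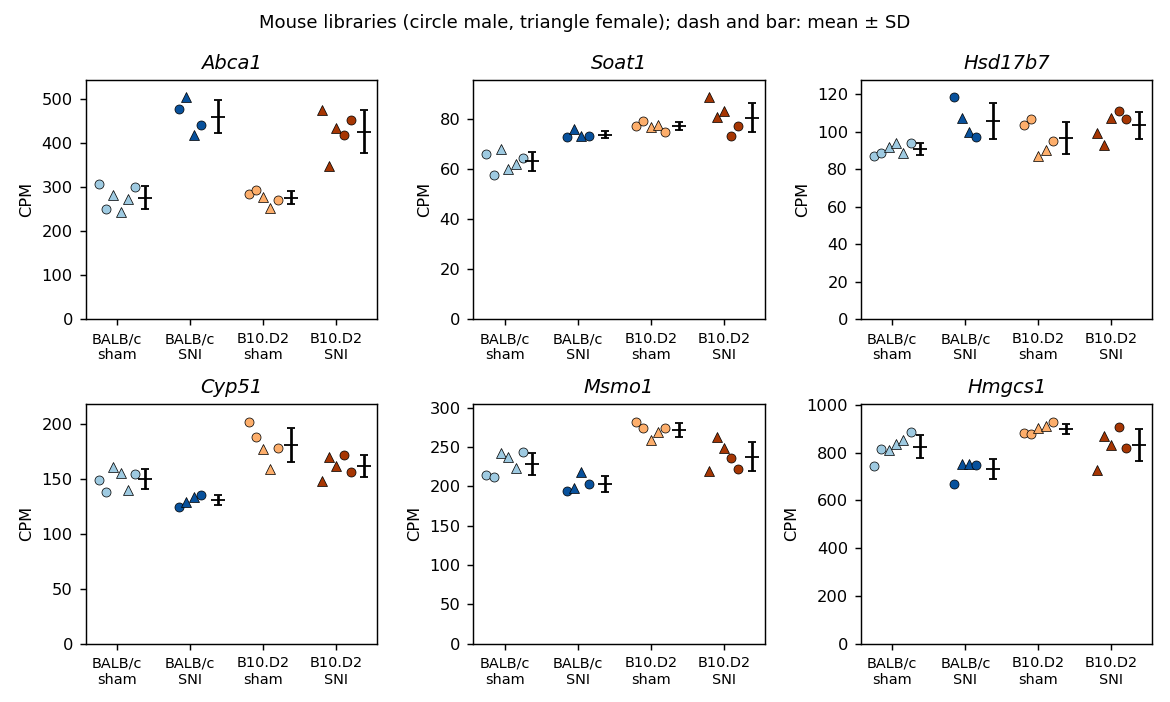
CPM of 6 of the genes in each mouse library (y axis from 0), by strain and surgery on the x axis, with circles for males, triangles for females, and a dash and bar for the group mean and SD. The Abca1 points of the injured libraries of both strains (348.6 to 504.4 CPM) lie above all sham points (243.9 to 307.3 CPM).

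The rest of the synthesis route in BALB/c leaned downwards without passing the test. Of the 28 log2 fold changes 21 were negative, with a median of -0.09 against 0.0033 over all features. Hmgcs1 (chr13:119690379-119708260, plus strand) had 746.0, 826.8 and 887.9 CPM in sham and 668.1, 752.5, 754.2 and 748.8 CPM in SNI, so that only the lowest SNI library fell clear of the sham group (log2 -0.17 ± 0.06, edgeR adjusted p = 0.0543). Msmo1, the methylsterol oxidase, and Lpin1, the phosphatidate phosphatase lipin, stood equally close to the threshold with edgeR adjusted p of 0.0511 and 0.0501. The 3 mevalonate kinases and decarboxylase (Mvk, Pmvk and Mvd) had log2 values of -0.06 to -0.17, and the isoprenoid enzymes Idi1 and Fdps had -0.16 and -0.07. Fdft1, Sqle and Lss, which build squalene and close it to lanosterol, had -0.08, -0.05 and -0.29. Of the 8 enzymes between lanosterol and cholesterol, 6 had negative values and Hsd17b7 and Ebp positive ones. None of the 5 regulators was called. Srebf1, the SREBP form that leans to fatty acid genes, had the highest value of them (log2 0.22 ± 0.08, edgeR adjusted p = 0.101), Insig1 the lowest (-0.16), and Srebf2, Insig2 and Scap had -0.08, 0.01 and -0.03. Of the handling genes not called, Npc1 had 0.04 and Stard4, a carrier of sterol between membranes, -0.22.

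The count in BALB/c moved with the settings. With RLE size factors 7 members were called (9.72% of all features were), with Hmgcs1, Lpin1 and Msmo1 joining the lower ones. With DESeq2 there were 8, these and Lss (6.66% of all features were called). Without sham library 50 there were 7 (10.7% of all features), and without SNI library 64 only Abca1 and Soat1 were left (6.56% of all features).

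In B10.D2, the strain that served as the second test of SNI, 2 of 28 members were called (7.14%, against 4.58% of all features). Abca1 rose 1.56-fold (2.10% of features were higher) and Msmo1 fell by 13.0% (2.48% of features were lower). Abca1 had 284.7, 294.4, 278.3, 254.3 and 270.3 CPM in sham and 476.9, 348.6, 435.1, 418.5 and 452.5 CPM in SNI. The groups did not overlap, and Abca1 was the only member of 28 of which this held (5.18% of all features). Its log2 fold change was 0.64 ± 0.08 with an edgeR adjusted p of 2.96e-05, and the call held in all 10 fits that left a library out. Msmo1 (chr8:64718139-64733792, minus strand) had 282.1, 274.4, 259.3, 268.6 and 273.9 CPM in sham and 219.7, 262.8, 248.5, 235.8 and 221.8 CPM in SNI. All but the highest SNI library lay below the sham group (log2 -0.20 ± 0.05, edgeR adjusted p = 0.0302). That call was lost in 5 of 10 fits with a library left out, and with the strain fitted alone, which left Abca1 as the only called member.

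As in BALB/c, 21 of 28 values were negative in B10.D2, with a median of -0.09 against 0.0076 over all features. Pmvk, Idi1, Sc5d, Cyp51 and Tm7sf2 had log2 values of -0.15 to -0.20 with edgeR adjusted p of 0.127 to 0.154, and were not called. Soat1, called in BALB/c, had 76.9, 79.2, 76.8, 77.5 and 74.6 CPM in B10.D2 sham and 88.4, 80.8, 82.9, 72.9 and 77.01 CPM in SNI, groups that overlapped (log2 0.05 ± 0.05). Hsd17b7 had a log2 value of 0.12 ± 0.06 there (edgeR adjusted p = 0.318).

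**Figure D3:**
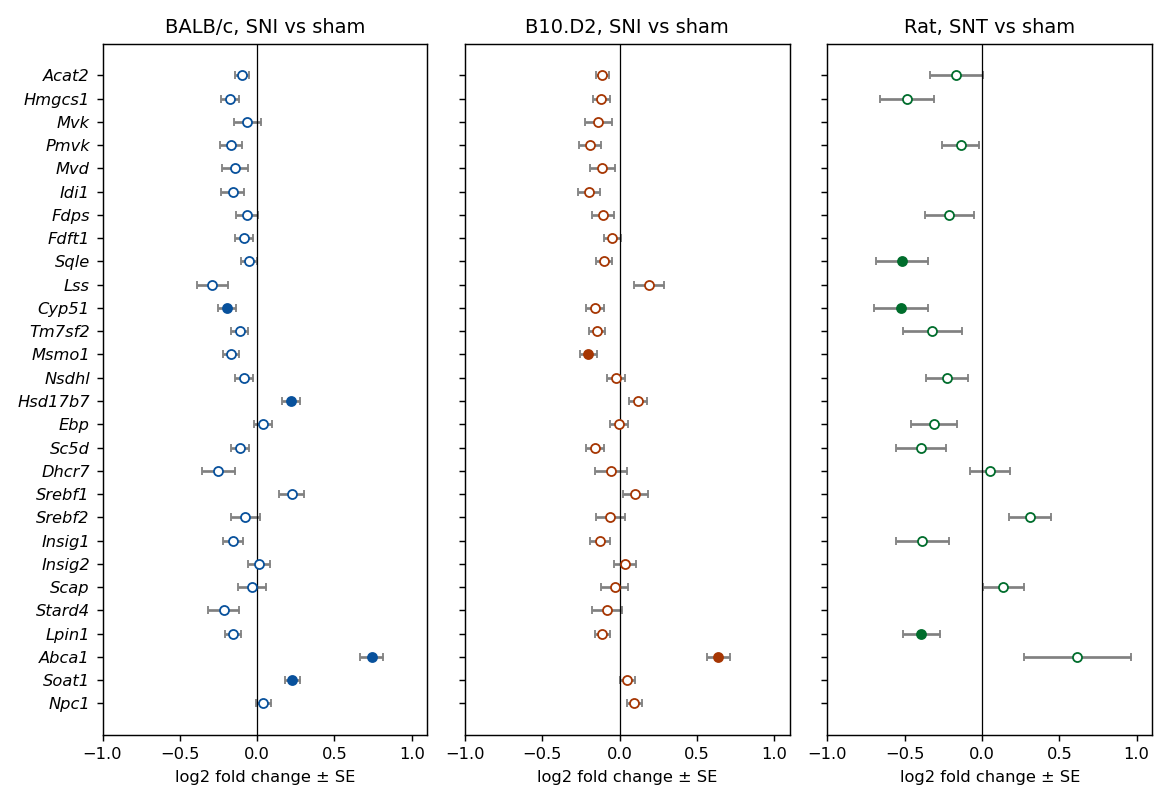
Change after injury as log2 of injured over sham, with bars for the standard error (x axis), for each gene (y axis, in pathway order from Acat2 to Npc1) in BALB/c, B10.D2 and rat, with filled points for called genes and rat genes listed at 0 left blank. Abca1 stands furthest to the right in both mouse strains and most synthesis genes lie a little left of 0.

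Whether the strains differed in their response was tested directly. None of the 28 members was called for the strain by injury interaction (0.0243% of features were, 6 in all), by edgeR or by DESeq2, and 2 had an unadjusted p under 0.05. So the Soat1 call in BALB/c alone is not a shown difference between strains: its interaction was -0.18 ± 0.07 with an edgeR adjusted p of 1. The widest gap was in Lss, lanosterol synthase, with -0.29 ± 0.10 in BALB/c, 0.19 ± 0.10 in B10.D2 and an interaction of 0.48 ± 0.14 (edgeR adjusted p = 0.856). In BALB/c SNI the 2 females had 74.5 and 74.4 CPM of Lss and the males 104.5 and 93.4 CPM. In B10.D2 SNI 4 libraries had 105.9 to 119.0 CPM and a female 71.2 CPM, so the values within each injured group were widely spread.

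With the strains averaged in the same model, which uses the same 20 libraries again and is no independent test, 13 of 28 members were called (46.4%, against 16.5% of all features). Abca1, Soat1 and Hsd17b7 were the 3 higher ones (7.82% of features were higher), and 10 were lower (8.67% of features were lower). The lower ones were Acat2, the thiolase of the opening step, with a log2 value of -0.10 ± 0.03, Hmgcs1 (-0.15 ± 0.04), Pmvk (-0.18 ± 0.05), Idi1 (-0.18 ± 0.05), Cyp51 (-0.18 ± 0.04), Tm7sf2 (-0.13 ± 0.04), Msmo1 (-0.19 ± 0.04), Sc5d (-0.14 ± 0.04), Insig1 (-0.14 ± 0.05) and Lpin1 (-0.13 ± 0.03). These shifts were small: at the lower end Acat2 fell by 6.99%, and at the upper end Msmo1 fell by 12.04%. They include at least 1 enzyme of each stage but the squalene stage, where Fdft1, Sqle and Lss had -0.07, -0.08 and -0.05. The call of Insig1 was lost in 13 of 20 fits that left a library out and without the sex term, that of Sc5d in 2 fits, and those of Idi1 and Tm7sf2 in 1 each.

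As a mean of log2(CPM + 1) over the 28 genes, the change after injury was small in both strains. The mean changed by -0.05 in BALB/c (6.58 ± 0.06 in sham, 6.54 ± 0.04 in SNI) and by -0.04 in B10.D2 (6.70 ± 0.04 and 6.66 ± 0.06; SD). The median level over the genes, taken in each library in place of the mean, rose by 0.0229 in BALB/c and 0.0929 in B10.D2. That value follows the genes of middle level and is not the median change of the genes. The median change was -0.09 in each strain, with 21 of 28 values negative. The mean of the 18 synthesis enzymes changed by -0.11 (BALB/c) and -0.09 (B10.D2), that of the 5 handling genes by 0.13 and 0.11, and that of the 5 regulators by -0.0048 and -0.02. For each of these means the ranges of the sham and SNI libraries overlapped in both strains. The overlap was narrow for the handling genes. Their highest sham and lowest SNI libraries were 6.81 and 6.78 in BALB/c and 6.9395 and 6.9371 in B10.D2. Within the groups the SD of the handling mean was 0.0451 to 0.0555, and no test of these means was made. Among the 5 handling genes Abca1 had the largest log2 value (0.74 in BALB/c, 0.64 in B10.D2). In each strain 3 of the 5 values were positive and 2 negative, with medians of 0.04 (BALB/c) and 0.05 (B10.D2), so the rise of this mean is not one of all 5 genes.

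None of the 28 members was called for female against male mice (0.243% of features were), by edgeR or by DESeq2, and 3 had an unadjusted p under 0.05. Lss was the lowest of them with a log2 value of -0.23 ± 0.07 in females (edgeR adjusted p = 0.176).

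The uninjured ganglia of the strains were compared next. In B10.D2 sham 8 of 28 members were called against BALB/c sham (28.6%, against 21.6% of all features), all of them higher in B10.D2 (11.5% of features were), and 23 of 28 values were positive with a median of 0.12 against -0.0063 over all features. The share called was thus not far from that of all features. They were Acat2, Sqle, Cyp51, Msmo1, Sc5d, Insig1, Stard4 and Soat1, higher by 14.2% (Sqle) to 22.9% (Soat1).

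Sc5d, a sterol desaturase, had 144.3, 156.2 and 174.9 CPM as lowest, median and highest in BALB/c sham and 196.2, 204.4, 188.0, 192.4 and 188.5 CPM in B10.D2 sham (log2 0.30 ± 0.05, edgeR adjusted p = 0.000271). Soat1 had at most 67.8 CPM in BALB/c sham and at least 74.6 CPM in B10.D2 sham (log2 0.30 ± 0.045, edgeR adjusted p = 3.58e-05). Msmo1 had 211.8, 230.5 and 243.2 CPM in BALB/c sham and 259.3 to 282.1 CPM in B10.D2 sham (log2 0.25 ± 0.05, edgeR adjusted p = 0.000687). In Acat2, Sqle, Msmo1, Sc5d and Soat1 the sham groups did not overlap (5 of 28, with 13.3% of all features not overlapping). Cyp51 (log2 0.27 ± 0.06), Insig1 (0.25 ± 0.06) and Stard4 (0.27 ± 0.09) overlapped between strains, and the call of Stard4 was lost in 9 of 11 fits with a sham library left out, while the other 7 held in all 11. For Abca1 no strain difference was detected in sham ganglia, with 276.4 ± 25.6 CPM in BALB/c and 276.4 ± 15.2 CPM in B10.D2 (SD), a log2 value of -0.01 ± 0.07 and an edgeR adjusted p of 0.967.

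**Figure D4:**
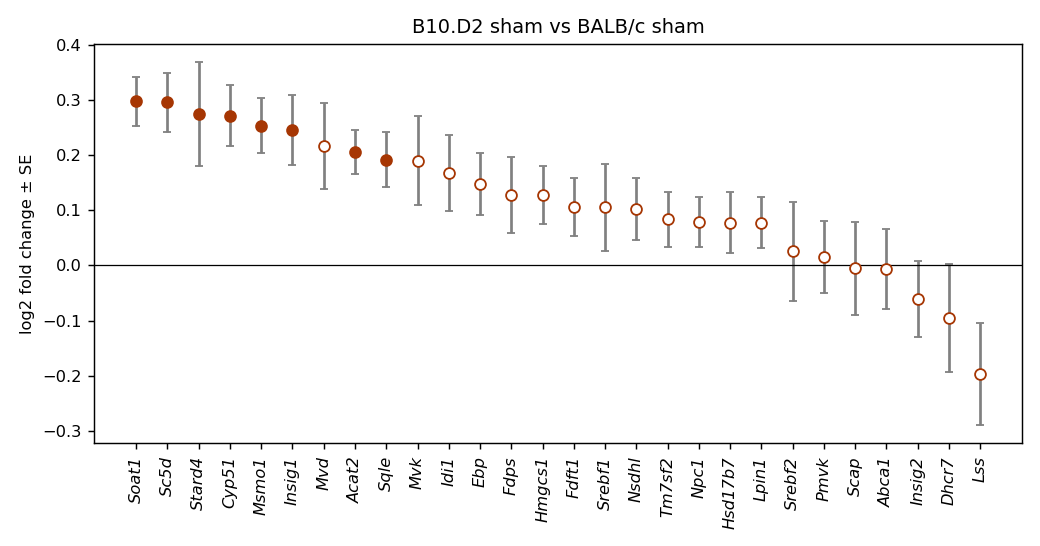
Log2 fold change of B10.D2 sham over BALB/c sham with its standard error (y axis) for the 28 genes (x axis, sorted by value), with filled points for called genes. The 8 filled points all lie above 0, from 0.19 (Sqle) to 0.30 (Soat1).

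Markers of other cells moved along with these contrasts, and their part in the results was not tested. Fewer cells of a type and less RNA per cell cannot be told apart in such bulk tissue. The summed CPM of 10 macrophage markers, none at 0, was 131.7 to 318.3 in BALB/c sham and 272.8 to 402.1 in BALB/c SNI, with Cd68, Csf1r, Cx3cr1 and Lyz2 called higher (4 of 10). In B10.D2 it was 242.4 to 297.3 in sham and 267.0 to 459.6 in SNI with none of 10 called (9 at an unadjusted p under 0.05), and 5 of 10 were called higher in B10.D2 than in BALB/c sham. The sum of 10 neuron markers was 9812 to 11300 CPM in BALB/c sham and 8803 to 10030 CPM in SNI, with 3 of 10 (Nefh, Nefm and Snap25) called lower in each strain. The 10 Schwann cell and myelin genes, none at 0, summed to 2466 to 5590 CPM in BALB/c sham and 3390 to 3976 CPM in SNI, with 1 of 10 called, and none was called in B10.D2. The 7 adipocyte markers, a sign of fat around the ganglia, summed to 46.4 to 117.7 CPM in BALB/c sham and 13.2 to 90.6 CPM in B10.D2 sham, with 2 of 7 called lower in B10.D2. Of 6 satellite glia markers Cdh19 alone was called after SNI, higher in each strain. The list summed to 2248 to 2564 CPM in BALB/c sham and 2382 to 2918 CPM in BALB/c SNI, with 5 of 6 log2 values positive. In B10.D2 it summed to 2141 to 2483 CPM in sham and 2178 to 2504 CPM in SNI, with 3 of 6 positive and 3 negative.

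Other genes of sterol and lipid metabolism were read against the same shares of all features, 9.69% called in BALB/c and 4.58% in B10.D2. Of 9 other sterol and mevalonate genes tested, none was called in either strain by edgeR, with 2 in BALB/c and 0 in B10.D2 at an unadjusted p under 0.05, and 2 were called lower with the strains averaged. Of 14 genes of the liver X receptor, lipoprotein and efflux group, 2 (14.3%) were called in BALB/c, both higher: Apod, a lipid-binding apolipoprotein (log2 0.58 ± 0.11), and Mylip, the ligase that removes the LDL receptor (0.31 ± 0.09). In B10.D2 3 (21.4%) were called, with Apod (0.58 ± 0.11) and Scarb1 (0.25 ± 0.07) higher and the transporter Abcg1 lower (-0.16 ± 0.04). Of 12 fatty acid genes regulated by SREBP, Fads1, a desaturase, was higher (0.18 ± 0.05) and Pnpla3, a lipase, lower (-0.39 ± 0.10) in BALB/c (2 of 12, 16.7%), and none was called in B10.D2 (2 at an unadjusted p under 0.05).

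The study assembled LncRNAs from reads outside gene models, and 8 of 4730 such mouse models overlapped a member or lay within 10000 bases of one. Those at Ebp, Srebf1 and Npc1 overlapped the gene. At Srebf1 and Npc1 they lay on the opposite strand, so the split of reads there depends on the strand setting of the counting. That setting is not given in the sources used here. At Ebp the model lay on the same strand as the gene, where a strand setting does not separate the reads. Of 7 with enough counts to test, none was called after injury in either strain by edgeR. LncRNA4879, 5038 bases beyond the end of Cyp51 on the same strand, was lower in B10.D2 sham (1.1 ± 0.260 CPM, n = 5) than in BALB/c sham (1.77 ± 0.424 CPM, n = 6), with a log2 value of -0.69 ± 0.18 and an edgeR adjusted p of 0.00697, while Cyp51 itself was higher. LncRNA7458, opposite to Npc1, was also lower in B10.D2 (-0.53 ± 0.16, edgeR adjusted p = 0.0233). LncRNA2615 begins 230 bases from Hmgcs1 on the opposite strand and had at most 0.351 CPM in any mouse library.

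In rat, SNT was a second injury model in a different species. Of the 16 members with counts 3 were called (18.8%, against 27.4% of all 13690 features tested), and all 3 were lower after SNT (15.1% of features were). They were Cyp51, Sqle, the squalene epoxidase, and Lpin1, which fell by 30.5%, 30.2% and 23.8%. The share of members called was below that of all features, and 12 of 16 log2 values were negative, with a median of -0.27 against 0.0027 over all features.

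Cyp51 had 739.6, 796.7, 782.4 and 558.5 CPM in sham 1 to 4 and 639.5, 425.1, 411.7 and 522.5 CPM in SNT 1 to 4 (log2 -0.53 ± 0.17, edgeR adjusted p = 0.0479). Sham 4 lay among the SNT values and SNT 1 was the highest of its group. Sqle had 208.2, 281.6, 235.7 and 181.0 CPM in sham and 191.9, 139.2, 131.2 and 171.1 CPM in SNT, with the same overlap (log2 -0.52 ± 0.17, edgeR adjusted p = 0.0431). Lpin1 had 53.5, 65.8, 63.97 and 50.3 CPM in sham and 42.3, 44.3, 41.1 and 50.3 CPM in SNT (log2 -0.39 ± 0.12, edgeR adjusted p = 0.0358). Only for Lpin1 did the groups not overlap (1 of 16, with 26.5% of all features not overlapping), and there sham 4 and SNT 4 were nearly equal. Each of the 3 calls was lost in 6 of 8 fits that left a library out. Each rat title holds a number shared by a sham and an SNT library. The labels do not say what it stands for, and it is called the run here. None of the 16 members was called with the run as a replicate block (17.4% of features were) or with no filter on low counts (16.6% were), both by edgeR. Within the 4 runs the differences of SNT and sham were negative for Cyp51 and Sqle in all 4. That of Lpin1 was -0.001 on the log2 scale in the run of sham 4 and SNT 4 and negative in the other 3.

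**Figure D5:**
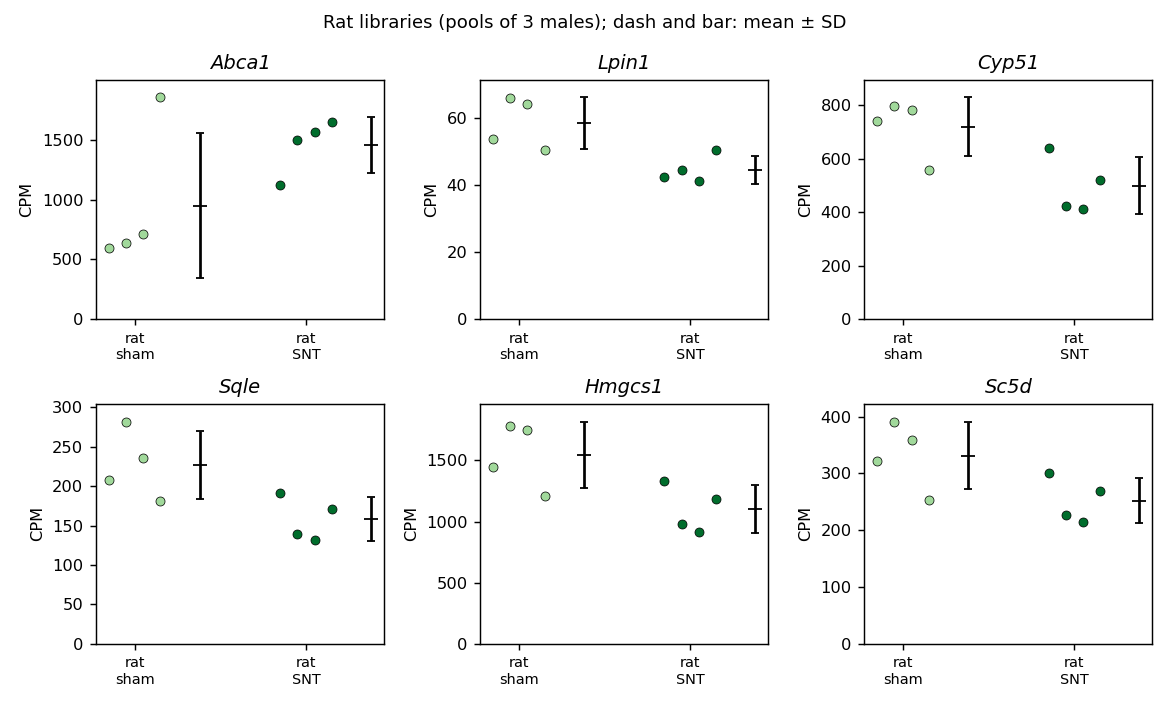
CPM of 6 genes in each rat library (y axis from 0), sham and SNT on the x axis, each point a pool of 3 males and each dash and bar the group mean and SD. In Abca1 the sham 4 point at 1851 CPM lies above all SNT points, and the other sham points lie between 596.5 and 710.9 CPM.

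Without sham 4 and SNT 1, 10 of 16 members were called (43.9% of 13892 features were). Abca1 was higher (21.1% of features were) and Cyp51, Sqle, Hmgcs1, Insig1, Sc5d, Tm7sf2, Ebp, Lpin1 and Nsdhl were lower (22.8% of features were). Cyp51 then had a log2 value of -0.77 ± 0.14 (edgeR adjusted p = 0.00199) and Sqle -0.71 ± 0.15, that is, they fell by 41.2% and 39.0%. Without sham 4 alone 7 members were called, with 34.6% of all features called, and without SNT 1 alone 5, with 36.1% of all features called. The libraries were doubted for their place between the groups and not for their sterol genes, but they were singled out with the data known. Leaving out libraries that lie between the groups widens the gap between groups in itself. The share of all features called rose from 27.4% to 43.9%, so the larger changes are no independent estimate of the injury effect.

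Abca1 in rat depended on sham 4. With all libraries its log2 value was 0.62 ± 0.35 (edgeR adjusted p = 0.201), with 596.5, 641.0, 710.9 and 1851 CPM in sham and 1121, 1495, 1563 and 1649 CPM in SNT. Without sham 4 and SNT 1 it was 1.28 ± 0.14 (edgeR adjusted p = 0.000162), a 2.42-fold rise. The choice of libraries in itself widens that gap. The rat macrophage sum, with Aif1, Cd68, Csf1r and Mrc1 listed at 0, was likewise higher in sham 4 than in the other sham libraries, though the order within the groups differed from that of Abca1: 777.3, 425.7 and 454.9 CPM in sham 1 to 3, 1895 CPM in sham 4, and 1649 to 2376 CPM in SNT. The part of these cells in the Abca1 values was not tested.

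Of the other rat members Hmgcs1 had 1444, 1778, 1750 and 1207 CPM in sham and 1335, 977.2, 915.5 and 1184 CPM in SNT, a log2 value of -0.49 ± 0.17 that was not called (edgeR adjusted p = 0.0631). Sc5d and Insig1 had -0.39 ± 0.16 and -0.39 ± 0.17, and Srebf2 had 0.31 ± 0.14 with edgeR adjusted p of 0.114. Srebf2 had a positive difference in 4 of 4 runs, and Hmgcs1 and Ebp had negative ones in 4 of 4. Acat2, Pmvk, Dhcr7, Tm7sf2 and Fdps had a positive difference in 2 of 4 runs and a negative one in the others, and in Tm7sf2 the negative ones (-0.84 and -0.78 on the log2 scale) were larger than the positive ones (0.11 and 0.28). The mean of log2(CPM + 1) over the 16 genes changed by -0.17, from 7.68 ± 0.15 to 7.51 ± 0.17 (SD, n = 4), with overlapping groups, and that of the 11 synthesis enzymes among them by -0.30.

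For the other lists in rat the share to read against is again the 27.4% of all features called. Of the other sterol genes 2 of 7 tested (28.6%) were called, both higher, among them Ch25h, which makes an oxysterol from cholesterol (log2 1.15 ± 0.19). Of these 7 log2 values 6 were positive and 1 negative. Their mean of log2(CPM + 1) rose by 0.40, opposite to that of the synthesis enzymes among the members. It was 5.07 to 5.32 in sham and 5.54 to 5.63 in SNT, without overlap, and was not tested. Of the 10 liver X receptor, lipoprotein and efflux genes tested, Nr1h3, a liver X receptor (0.57 ± 0.18), and Vldlr (0.41 ± 0.10) were higher and Lipa, the lysosomal lipase (-0.61 ± 0.14), lower (3 of 10, 30%). Of 8 fatty acid genes only the elongase Elovl5 was called (-0.56 ± 0.16), or 12.5%. The Schwann cell and myelin list, of which 4 genes were listed at 0, had 3 of 6 tested genes called, all higher. The neuron list, of which Nefh, Nefm, Rbfox3, Tubb3 and Uchl1 were listed at 0, had 2 of 4 called, both lower. Of the macrophage list 1 of 6 tested was called (Cx3cr1, higher), of the satellite glia list 1 of 2 (lower) and of the adipocyte list 1 of 3 (higher). Their part in the sterol values was not tested.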

How the data were processed

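The authors aligned reads with STAR to mm10 (mouse) or rn6 (rat) and made the counts with HTSeq for annotated genes and for their assembled LncRNAs; versions are not given in the sources used here. The deposited tables hold raw counts per feature, used as deposited. Result tables with the authors' own fold changes and p-values were used only for gene symbols. Counts were tested in edgeR 4.0.16 (R 4.3.3) by the quasi-likelihood F test after TMM scaling and filterByExpr, with strain by surgery groups and sex in mouse and surgery in rat; p-values were adjusted by the Benjamini-Hochberg method over all features and are two-sided. SE is the size of the log2 fold change over the square root of F. Alternatives used DESeq2 1.42.0, RLE scaling, other count filters, a model without sex, each strain alone and omitted libraries. Exon lengths and positions came from GENCODE M21 (GRCm38). No rat annotation was used. The mice were separate animals and the rat libraries separate pools. Labels name 2 mouse samples that were not analysed here. Pairs of rat libraries with a shared run number did not deviate together (correlations -0.305 to 0.051 over 12600 features). The fits were also run on simulated counts with known changes and the same spread in every feature. No simulated library lay between the groups, so the simulation does not cover the rat data in that respect. The 28 genes, the lists and the naming rule (every member named by role, libraries given for members called, up to 3 called genes of each other list) were chosen with earlier results of these data known. Some genes of these lists are not reported here.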

Additional observations from a re-analysis of the deposited data

Results flagged for a closer look

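Of 168 groups of 4 to 6 libraries in which the values of a member or a set mean were examined, 7 had a library whose gap to the nearest other exceeded Dixon's 95% limit; about 1 in 20 would by chance. In rat sham the Abca1 level of sham 4 was 1851 CPM, against 596.5 to 710.9 CPM in the other 3. In BALB/c SNI a male library had 668.1 CPM of Hmgcs1 against 748.8 to 754.2 CPM, the other male 139.0 CPM of Srebf2 against 108.5 to 112.6 CPM, and a female 75.8 CPM of Soat1 against 72.8 to 73.0 CPM. In B10.D2 SNI a female had 71.2 CPM of Lss against 105.9 to 119.0 CPM. In BALB/c sham a male had 84.2 CPM of Npc1 against 71.4 to 75.2 CPM. The mean of log2(CPM + 1) over the regulators was 7.60 in SNT 3 against 7.85 to 7.88 in the other SNT libraries. No cause was tested.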

How the results depend on the processing

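The share of all features called is given in brackets after each count. Called members in BALB/c numbered 4 (9.69%), and 7 with RLE size factors (9.72%). There were 7 with no filter on low counts (5.54%), 7 with at least 10 counts in every library (11.7%) and 8 with DESeq2 (6.66%). Leaving out a library gave 2 (6.56%, without SNI 64) to 7 (10.7%, without sham 50). In B10.D2 the count of 2 (4.58%) became 1 with the strain fitted alone (3.83%). With a library left out it was 1 to 3 (2.64% to 4.84%). It was 1 without sham 58, 60 or 88 or SNI 69 or 90. In rat the count of 3 (27.4%) became 0 with no filter on low counts (16.6%). It was also 0 with the replicate block of the run number (17.4%), which the check of deviations did not show to pair the libraries. Without sham 4 and SNT 1 together it was 10 (43.9%). With a library left out it was 0 without sham 1, 2 or 3 or SNT 2 or 3 (10.6% to 15.9%). It was 1 without SNT 4 (15%), 5 without SNT 1 (36.1%) and 7 without sham 4 (34.6%). With a median over members in place of a mean, the set change turned from negative to positive in both strains, to 0.0229 in BALB/c and, for B10.D2, 0.0929. That value follows the genes of middle level and is not the median change of the genes, which was -0.09 in each strain. The cause of the shifts in the counts of called members was not tested. Member counts for the strain difference, the averaged strains, the interaction and sex stayed within 1.5 times or at 0, and no gene named as called changed direction. Over all features, 60 were called for sex, but 222 without a filter, 242 with DESeq2 and 35 to 159 with a library left out. The interaction had 6, but 10 with DESeq2, 3 with at least 10 counts in every library and 3 to 6 with a library left out. B10.D2 SNI had 1130, and 665 to 1214 with a library left out. Rat had 3753, 1483 to 5041 with a library left out and 6100 without sham 4 and SNT 1. Depth was lower in rat, and the 12 members listed at 0 there gave no comparison.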
